A study of Homo sapiens with 6 samples.

Results

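The potassium, sodium and calcium channel genes were examined in MDA-MB-231, an established line of human breast cancer cells known as triple-negative and mesenchymal in character. The group was chosen by gene symbol: genes with symbols starting KCN followed by A to V or X, SCN followed by a digit, or CACN followed by A, B or G. This gave 126 of the 18132 genes measured, read by 295 probe sets. The match of symbols used no measured value, but the members were chosen with earlier results of these data known. A gene was represented by its probe set with the highest mean over all arrays. The list holds 89 potassium, 12 sodium and 25 calcium channel symbols. The potassium symbols include 4 loci that encode no channel subunit, namely KCNQ1OT1, KCNIP4-IT1, KCNJ5-AS1 and KCNRG.

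Both groups were the same cell line, grown in serum-supplemented medium and kept for 8 h either with 5 µM SAHA or with DMSO, its solvent. SAHA, also called vorinostat, inhibits histone deacetylases, the enzymes that remove acetyl groups from histones. Each group had 3 Affymetrix PrimeView arrays, which read the 3' region of transcripts with sets of short probes. All values are deposited log2 signals. Whether the replicates came from separate cultures is not stated in the labels, and p-values therefore measure only the spread among these 6 samples, which may be technical. In bulk RNA, more transcript per cell and more cells with the transcript cannot be told apart.

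Ion channels are membrane proteins that let ions pass down their gradient. Voltage-gated sodium channels start the action potential of nerve and muscle, calcium channels couple depolarization to secretion, contraction and transcription, and potassium channels set the resting potential and end the action potential. Each family consists of subunits that line the pore and of auxiliary subunits that alter the gating or surface transport of a pore. Most were described in excitable tissues, but tumour cells of epithelial origin also carry some, of which the calcium-activated potassium channel KCNN4 is an example known to set membrane potential and cell volume. Many neuronal channel genes carry a site for the repressor REST, which recruits histone deacetylases.

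The sequence just upstream of the start is shown for the 5 channel genes that kept their call in every setting that measured them and have an entry in the promoter table, because they differ in their content of CpG, the dinucleotide that is methylated in mammalian DNA. Sequences come from RefSeq (GRCh38.p14), are written 5' to 3' on the gene's own strand, and carry each CpG in capitals. The windows are chr2:17877647-17877846 on the plus strand for KCNS3, chr2:166375945-166376144 on the minus strand for SCN9A, chr1:233613906-233614105 on the plus strand for KCNK1, chr19:48455374-48455573 on the plus strand for KCNJ14 and chr19:43780974-43781173 on the minus strand for KCNN4.
KCNS3: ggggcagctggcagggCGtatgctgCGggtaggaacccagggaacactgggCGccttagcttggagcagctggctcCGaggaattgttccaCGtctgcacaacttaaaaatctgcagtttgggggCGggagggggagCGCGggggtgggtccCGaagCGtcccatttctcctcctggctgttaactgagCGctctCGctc
SCN9A: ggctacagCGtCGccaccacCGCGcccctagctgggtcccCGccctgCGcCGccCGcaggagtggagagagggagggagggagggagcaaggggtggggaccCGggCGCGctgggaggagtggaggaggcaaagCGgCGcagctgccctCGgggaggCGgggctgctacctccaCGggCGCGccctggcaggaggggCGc
KCNK1: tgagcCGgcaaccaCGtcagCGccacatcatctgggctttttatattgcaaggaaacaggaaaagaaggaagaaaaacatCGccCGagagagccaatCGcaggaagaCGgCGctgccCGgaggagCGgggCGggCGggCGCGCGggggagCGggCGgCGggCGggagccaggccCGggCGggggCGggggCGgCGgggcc
KCNJ14: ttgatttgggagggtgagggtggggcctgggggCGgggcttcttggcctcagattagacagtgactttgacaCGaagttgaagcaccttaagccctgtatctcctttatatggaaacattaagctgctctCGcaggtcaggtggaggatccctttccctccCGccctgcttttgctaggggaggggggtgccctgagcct
KCNN4: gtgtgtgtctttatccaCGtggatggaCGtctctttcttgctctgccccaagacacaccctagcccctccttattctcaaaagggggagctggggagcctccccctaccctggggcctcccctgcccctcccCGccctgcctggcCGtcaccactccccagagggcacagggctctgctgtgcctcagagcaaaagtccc
These 200 bases held 12 CpG in KCNS3, 19 in SCN9A and 24 in KCNK1, against 4 in KCNJ14 and 4 in KCNN4. KCNS3 and SCN9A rose with SAHA, while KCNJ14 and KCNN4, with the fewest CpG, and KCNK1, with the most, fell. The 5 genes were picked by their calls, and nothing can be read from them about CpG and direction. KCNMB4 and CACNA2D4, described with them below, are named only.

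In DMSO most channel genes gave a low signal. Genes with a mean under 5 in the 3 DMSO arrays are called dim here, those of at least 7 bright, and the others middle. By this division 71 channel genes (56.3%) were dim, 48 (38.1%) middle and 7 (5.56%) bright. Among all genes 29.9% were dim, 23.5% middle and 46.7% bright. The median of the channel genes was 4.86, with a range of 2.83 to 9.39, against 6.66 for all genes. The highest dim gene was KCNV2, which rounds to 5.00, and the lowest middle gene was KCNK15 at 5.02. CACNG6 at 6.91 lay just under the bright class and KCNK4 at 7.02 just inside it.

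**Figure D1:**
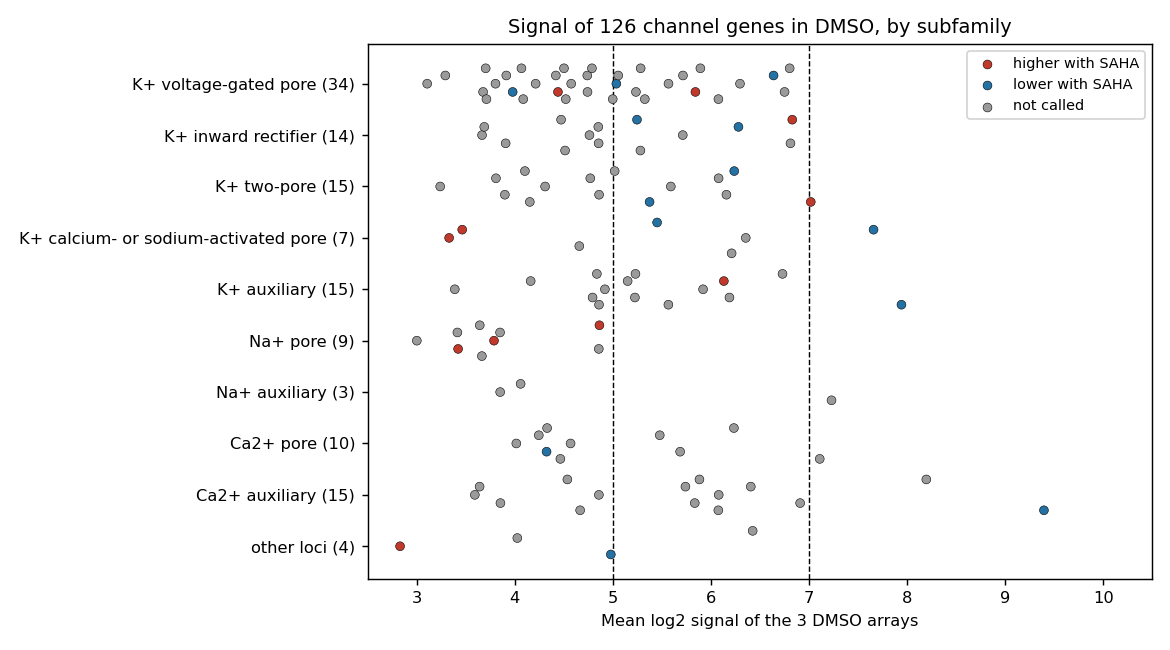
Mean log2 signal of each of the 126 channel genes over the 3 DMSO arrays (x axis), by subfamily with its number of genes (y axis); points within a subfamily are spread vertically only for legibility. Dashed lines mark the limits at 5 and 7, and colours give limma's call for SAHA against DMSO. All 9 sodium channel pore genes lie under 5, and 7 genes in all lie at 7 or more.

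Dim does not mean absent, and bright does not mean abundant, because the arrays carry no detection call and probe sets differ in how brightly they hybridize. The array's background controls, 23 probe sets that match no human transcript and are graded by the number of G and C bases in their 25-base probes, ran from 2.64 to 10.3 in DMSO. Those with up to 17 such bases lay under 5 (15 probe sets), and the 4 with 22 or more lay at 7 or above. The base content of the channel genes' probes was not analysed here. Genes of other tissues gave a second reference, since 20 genes such as those of liver, lung or pituitary had a median of 4.81 and a 75th percentile of 6.18 in DMSO. Of the channel genes, 103 lay at or under that percentile, and all 126 lay at or under the highest background control. The median of all genes (6.66) and that of all bright genes (9.13) lay above that percentile but under the highest control. The same counts over all genes are not given here, and lying under the highest control does not by itself place a gene at background. A fold given here is therefore one between signals, and understates the change of a transcript whose signal in one group is at background. The reference was not free of expressed genes, since MBP, of myelin, was at 9.12.

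Probe sets of one gene also disagreed on its level. Of the 89 channel genes with several probe sets, the brightest exceeded the dimmest by a median of 1.26 log2 units, and by more than 2 in 20 genes. The widest gap was 3.88, in KCNMB2. Of the 6 bright genes with several probe sets, KCNN4 was the one with all of them at 7 or more, while KCNK4 had one under 5 (4.56) and SCN2B had several, at 4.95, 4.86 and 3.66.

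The cell line's own markers fitted the label in part. Vimentin (VIM, 13.96 ± 0.01), CD44 (12.24 ± 0.09), CAV1 (12.16 ± 0.02) and AXL (12.61 ± 0.05) were bright in DMSO, while E-cadherin (CDH1, 4.20 ± 0.15) and the progesterone receptor (PGR, 3.29 ± 0.11) were dim (SD, n = 3). The epithelial EPCAM (8.67 ± 0.07) and ERBB2 (7.63 ± 0.15) were bright, though listed as low in this line, and ESR1 (5.98 ± 0.06) and GATA3 (6.67 ± 0.08), also listed as low, and SPARC (5.84 ± 0.22), listed as present, were in the middle class. Of the other cell types' defining genes, PTPRC (3.33 ± 0.19) and ALB (3.65 ± 0.05) were dim and CD3E was at 4.88 ± 0.07. The neuronal genes RBFOX3 (5.03 ± 0.04) and SYP (7.31 ± 0.05) were higher than these. Pearson's r across the 126 genes was 0.982 to 0.987 between DMSO arrays, 0.988 to 0.991 between SAHA arrays and 0.919 to 0.932 between groups.

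With SAHA few channel genes differed, and most of the differences were small. In limma's test, adjusted over all 18132 genes at 0.05, 11 channel genes (8.73%) were higher and 13 (10.3%) lower. Over all genes 24.6% were higher and 23.8% lower, so that 19.0% of the channel genes were called against 48.3% of all genes. By at least 2-fold, 2 channel genes were higher (KCNS3 and KCNMB4) and 1 lower (KCNJ14), where all genes gave 5.93% and 4.47%. The median log2 fold change was -0.03 among channel genes and -0.01 among all genes, and the median size was 0.11 against 0.21. In 119 of the 126 genes the log2 fold change was under 0.5 in size. In the 24 called genes, and in CACNB1, KCNA1, KCND2 and KCNH7 besides, the 3 SAHA values did not overlap the 3 DMSO values. This held for 28 of the 126 channel genes, against 10065 of all 18132 genes.

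How the calls divided between higher and lower rested on how arrays were scaled. With arrays centred on ribosomal protein genes, which moved the median of all genes by 0.14, 29 channel genes were higher and 5 lower with a median of 0.11, and 6523 of all genes were higher and 3113 lower with a median of 0.14. Centred on poly-A spike-ins, which moved it by 0.18, 26 channel genes were higher and 6 lower with a median of 0.15, and 6023 of all genes were higher and 2412 lower with a median of 0.17. The turn of the channel genes' median is therefore one that all genes share. Single arrays also moved the counts: 7 genes were higher without DMSO replicate 2, 4 without DMSO replicate 3, and 7 without SAHA replicate 2 or without SAHA replicate 3, while 8 were lower without DMSO replicate 1 and 7 without SAHA replicate 1.

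**Figure D2:**
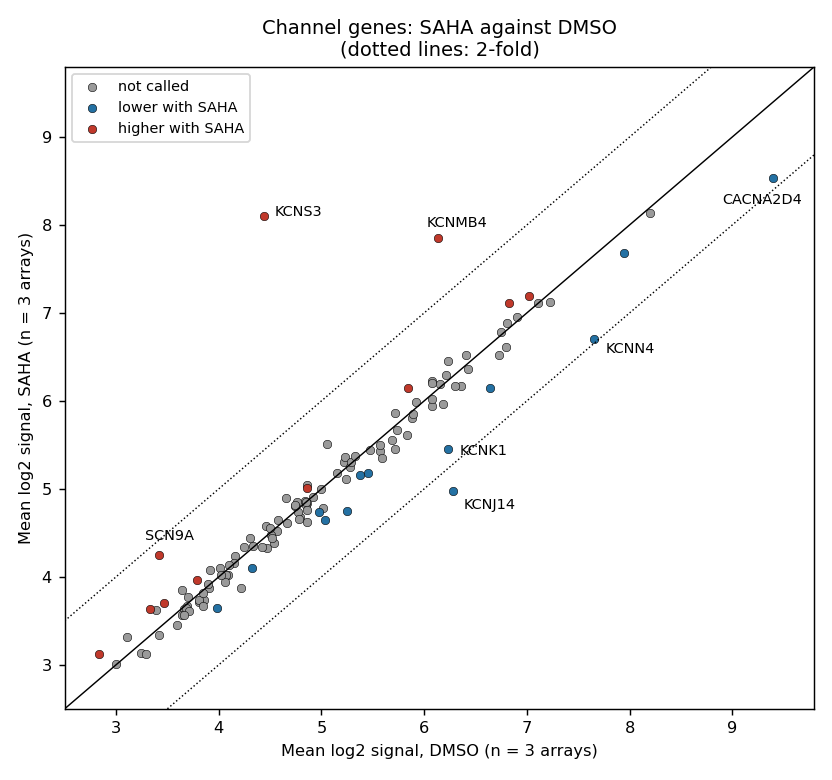
Mean log2 signal of each of the 126 channel genes in DMSO (x axis) and SAHA (y axis), each over 3 arrays; the solid line marks equality, dotted lines mark a 2-fold difference, and colours give limma's call. KCNS3 and KCNMB4 lie above the upper dotted line and KCNJ14 below the lower one, while most genes lie near the solid line.

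Dim channel genes, the closest the array gives to silent ones, were seldom called. Of the 71, 7 (9.86%) were higher, against 10.2% of all dim genes, and 3 (4.23%) were lower, against 4.08%. The middle class gave fewer rises, with 3 of 48 (6.25%) higher against 26.9% of all middle genes, and 7 (14.6%) lower against 12.1%. Of the 7 bright channel genes, 1 was higher and 3 were lower, where all bright genes gave 32.6% and 42.2%. The median log2 fold changes of the dim, middle and bright channel genes were -0.02, -0.06 and -0.11, and were 0.12, 0.08 and 0.04 after centring on ribosomal protein genes. These class differences were not tested.

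**Figure D3:**
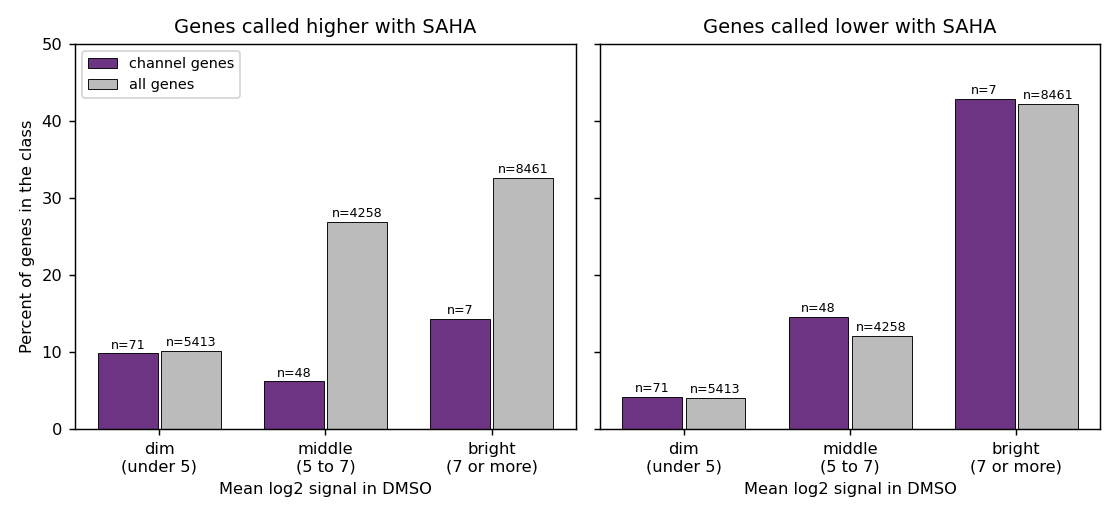
Percent of genes called higher (left) and lower (right) with SAHA by limma (y axis) among dim, middle and bright genes in DMSO (x axis), for the channel genes and for all genes, with the number of genes over each bar. The bars of dim channel genes (9.86% and 4.23%) stand close to those of all dim genes (10.2% and 4.08%).

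The DMSO arrays that set the class also enter the fold change. With classes set from DMSO array 1, 2 or 3 alone and that array left out of the fit, 5 of 67 (7.46%), 4 of 70 (5.71%) and 3 of 72 (4.17%) dim channel genes were higher, where all dim genes gave 10.7%, 9.65% and 9.27%. The lower ones were 1, 2 and 4 (1.49%, 2.86% and 5.56%), where all dim genes gave 4.20%, 4.81% and 4.60%. In rises, the dim channel genes stood close to all dim genes with classes from all 3 DMSO arrays. In each of these other settings their share was smaller than that of all dim genes. These settings also fit fewer arrays, and the differences were not tested. Leaving out DMSO replicate 2, DMSO replicate 3 or SAHA replicate 1 left 4, 3 and 4 dim genes higher, and without DMSO replicate 1 or SAHA replicate 1 the lower ones were 0 (3 at an unadjusted p under 0.05 in limma) and 1.

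The pore genes of voltage-gated potassium channels held the largest change. Of the 34 genes, 20 were dim and 14 middle in DMSO, and 2 were higher and 3 lower with SAHA. KCNS3 encodes a modifier subunit that forms no working channel alone and alters the gating of KCNB channels once assembled with them. Its log2 signal was 4.08, 4.66 and 4.58 with DMSO and 8.06, 8.07 and 8.16 with SAHA. All SAHA values lay far above all DMSO values, and the gene moved from the dim to the bright range. It rose by 3.66 ± 0.14 (limma's SE, n = 3 per group; adjusted p = 8.33e-07), a 12.6-fold difference in signal, in its single probe set. Its DMSO mean of 4.44 lay between the background controls with 16 (4.16) and 17 (4.63) G and C bases. Its SAHA mean of 8.10 lay between those with 23 (7.98) and 24 (8.62) in SAHA. The base content of its probes was not analysed, so expression in DMSO is not shown and the fold may be only a lower bound. Its range over 16 other settings was 3.48 to 3.84.

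KCNH3, a channel of the ether-a-go-go family known from the forebrain, rose by 0.30 ± 0.08 (limma's adjusted p = 0.0175). Its values were 5.98, 5.77 and 5.77 in DMSO and 6.22, 6.03 and 6.19 in SAHA, which do not overlap. The gene overlaps MCRS1, which fell by 0.88 ± 0.07, and the part of the overlap was not tested. The call of KCNH3 was lost in 6 of 16 other settings. KCNH8, of the same family, fell by 0.33 ± 0.10 (adjusted p = 0.0245), from 3.98 ± 0.16 to 3.65 ± 0.12 (SD, n = 3), while its other probe set gave -0.02 ± 0.09, and its call was lost in 9 of 15 other settings.

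KCNQ3 and KCNQ5 encode subunits of the M-current, a slow potassium current that damps repetitive firing. The values of KCNQ3 were 6.63, 6.60 and 6.69 in DMSO and 6.15, 5.99 and 6.31 in SAHA. All SAHA values lay below all DMSO values, and the gene fell by 0.49 ± 0.09 (adjusted p = 0.00178), a call lost in 1 of 16 other settings, and was at -0.31 after centring on poly-A spike-ins. KCNQ5 fell by 0.38 ± 0.09 (adjusted p = 0.00945), with 4.97, 5.04 and 5.10 in DMSO and 4.52, 4.85 and 4.59 in SAHA. Of its 3 probe sets, 2 were called lower, and 3 of 15 other settings, including both centrings, did not call it. KCNQ1, the cardiac and epithelial member, was at 0.04 (adjusted p = 0.765). KCNQ1 is named here because it overlaps KCNQ1OT1.

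The brightest gene of this subfamily was KCNG2, another modifier subunit, at 6.80 ± 0.21 in DMSO and 6.61 ± 0.06 in SAHA (adjusted p = 0.191). Among genes that were not called, KCNH1, a channel studied in tumours, had the largest difference at 0.46 ± 0.22 (adjusted p = 0.123); it was picked after its values were seen. Its first DMSO array was at 4.57 and the others at 5.40 and 5.19, against 5.38, 5.36 and 5.80 in SAHA, and its other probe set gave -0.20 ± 0.08.

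**Figure D4:**
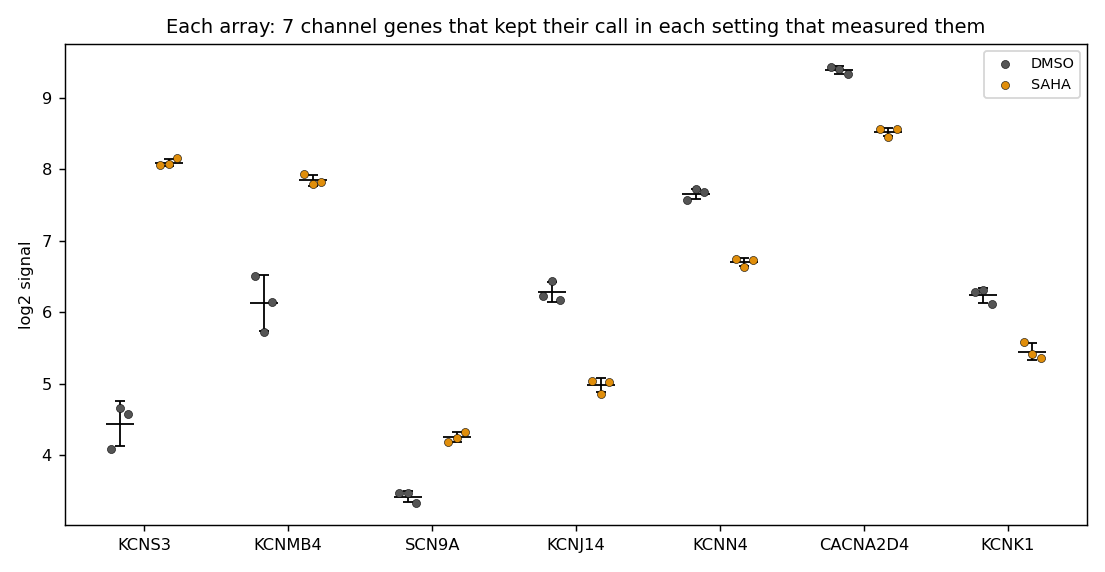
Log2 signal in each DMSO and SAHA array (y axis) of the 7 channel genes that kept their call in each alternative setting that measured them (x axis); points are arrays, horizontal marks means, and bars 1 SD (n = 3). In each gene the 3 SAHA points lie apart from the 3 DMSO points, above them in KCNS3, KCNMB4 and SCN9A and below them in the other genes.

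Auxiliary subunits of potassium channels held the second largest rise. KCNMB4 encodes a beta subunit of the large-conductance calcium-activated channel, best known from brain, where it slows the channel's gating. Its values were 6.51, 5.73 and 6.15 in DMSO and 7.94, 7.79 and 7.82 in SAHA, with no overlap. It rose by 1.72 ± 0.17 (adjusted p = 8.89e-05), or 3.29-fold, in its single probe set, and by 1.52 to 1.91 over 16 other settings. KCNMA1, the pore subunit that KCNMB4 joins, was at 6.21 ± 0.10 in DMSO and 6.30 ± 0.05 in SAHA (adjusted p = 0.355). It was picked after its values were seen, and was called higher after centring on ribosomal protein genes. That level came from a probe set whose name ends in _s_at. The other probe sets of KCNMA1 were dim in DMSO (3.11 to 4.98), gave -0.21 to 0.19, and were not called.

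The other 14 auxiliary genes gave 1 call. KCNAB2, a cytoplasmic beta subunit related to aldo-keto reductases, was the brightest of them, with 7.98, 8.01 and 7.84 in DMSO and 7.59, 7.77 and 7.66 in SAHA. These do not overlap, and it fell by 0.27 ± 0.07 (adjusted p = 0.0181). Its 4 other probe sets gave -0.15 to 0.04 and were not called, and the call was lost in 10 of 16 other settings. Of all 15 auxiliary genes, 6 were dim, 8 middle and 1 bright.

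Among the 7 pore genes grouped by symbol (KCNMA, KCNN, KCNT and KCNU) as calcium- or sodium-activated potassium channels, 2 were higher and 2 lower. KCNN4, the intermediate-conductance channel, had values of 7.57, 7.72 and 7.68 in DMSO and 6.75, 6.63 and 6.73 in SAHA. All SAHA values lay below all DMSO values. It fell by 0.95 ± 0.06 (adjusted p = 8.99e-06), and its other 2 probe sets gave -1.07 ± 0.09 and -0.78 ± 0.08. All 3 probe sets have names ending in _x_at, which marks probes that also match similar transcripts.

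The sodium-activated channels KCNT1 and KCNT2 moved little. KCNT1 fell by 0.27 ± 0.08 (adjusted p = 0.026), from 5.45 ± 0.14 to 5.18 ± 0.07, and lost its call in 11 of 16 other settings. KCNT2 rose by 0.24 ± 0.08 (adjusted p = 0.0342), from 3.46 ± 0.08 to 3.70 ± 0.11, while its dimmest by mean over all arrays fell by 0.41 ± 0.13 (adjusted p = 0.0304 over probe sets), so no direction can be given for the gene. KCNU1, a channel of sperm placed in this subfamily by its symbol alone, rose by 0.31 ± 0.10 (adjusted p = 0.0334). Its values were 3.55, 3.22 and 3.23 in DMSO and 3.64, 3.57 and 3.70 in SAHA. The call of KCNU1 was lost in 7 of 15 other settings.

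Inward rectifiers, which pass potassium more readily into the cell than out of it, gave 1 rise and 2 falls in 14 genes, of which 8 were dim and 6 middle. KCNJ14, a rectifier of the Kir2 group, had values of 6.23, 6.44 and 6.17 in DMSO and 5.04, 4.86 and 5.03 in SAHA, with no overlap. It fell by 1.30 ± 0.09 (adjusted p = 9.71e-06), 2.46-fold lower, while the dimmer probe set was at -0.43 ± 0.13 (adjusted p = 0.0312 over probe sets). The gene overlaps GRWD1, a bright gene of ribosome assembly that fell by 1.24 ± 0.08, from 9.54 to 8.30, and the part of the overlap was not tested.

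KCNJ12, a strong rectifier of heart and muscle and the brightest of its subfamily, rose by 0.28 ± 0.09 (adjusted p = 0.04). Its values were 6.73, 7.0 and 6.75 in DMSO and 7.01, 7.23 and 7.08 in SAHA, so the groups met without overlapping. Its other, dimmer probe set rose by 1.09 ± 0.08, from 4.44 to 5.52. The call of the brighter one was lost in 6 of 16 other settings. KCNJ12 has a near-identical copy, KCNJ18, and which of them the probes read was not tested. KCNJ15, an epithelial rectifier, fell by 0.50 ± 0.17 (adjusted p = 0.0417), with 5.05, 5.62 and 5.06 in DMSO and 4.85, 4.52 and 4.87 in SAHA, and lost its call in 9 of 15 other settings. KCNJ10, a glial rectifier, was not called in its brightest probe set (0.09 ± 0.12), but its second was at 0.91 ± 0.08 (adjusted p = 4.44e-05 over probe sets) and the dimmest at 0.30 ± 0.07. KCNJ10 was picked after its values were seen.

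Two-pore-domain channels carry the background potassium current that holds the resting potential. Of 15 genes, 8 were dim, 6 middle and 1 bright, and 1 was higher and 2 lower. KCNK1, a weakly rectifying member, had values of 6.28, 6.31 and 6.11 in DMSO and 5.58, 5.41 and 5.36 in SAHA. All SAHA values lay below all DMSO values, and it fell by 0.79 ± 0.08 (adjusted p = 0.00011); a second probe set was at -0.37 ± 0.09 (adjusted p = 0.00816 over probe sets). KCNK6, a close relative that the naming rule does not cover, fell by 0.21 ± 0.06 (adjusted p = 0.0242). Its call was lost in 9 of 16 other settings and its other 2 probe sets were not called. It overlaps YIF1B, which rose by 0.51 ± 0.06, and the part of the overlap was not tested.

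KCNK4, a mechanically gated member and the bright one, rose by 0.18 ± 0.05 (adjusted p = 0.0218), with 7.04, 7.0 and 7.01 in DMSO and 7.15, 7.22 and 7.22 in SAHA. The groups did not overlap, but its second probe set fell by 0.36 ± 0.12 (adjusted p = 0.0349 over probe sets). All its probe sets have names ending in _s_at, and no direction can be given for this gene.

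Sodium channel pore genes were all dim, and 3 of the 9 were higher, where all dim genes gave 10.2%. This difference was not tested. SCN9A encodes the channel of pain-sensing neurons whose loss abolishes pain. Its values were 3.47, 3.47 and 3.33 in DMSO and 4.19, 4.24 and 4.33 in SAHA, which are far apart, though the SAHA values stayed in the dim range. It rose by 0.83 ± 0.07 (adjusted p = 2.1e-05), or 1.78-fold in signal, and its second probe set rose by 1.43 ± 0.13, from 2.83 to 4.26. Both DMSO values lay near the background controls (median 3.29), so these folds too may be only lower bounds. SCN10A, also of sensory neurons, rose by 0.17 ± 0.05 (adjusted p = 0.033), and SCN4A, of skeletal muscle, by 0.15 ± 0.05 (adjusted p = 0.0401). Both lost their calls in most other settings, SCN10A in 10 and SCN4A in 13 of 15. Among the background controls, differences of that size were found only at the ends, with 3 (-0.19) and 25 (0.23) G and C bases. Controls nearer in signal to these 2 genes, with 15 to 18 such bases, differed by -0.05 to -0.03.

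Of the 12 sodium channel genes 0 were lower in limma's test, and 0 at an unadjusted p under 0.05. Of these 12 genes 11 were dim, and only 4.08% of all dim genes were called lower. The auxiliary SCN2B was bright, at 7.23 ± 0.16 in DMSO and 7.12 ± 0.12 in SAHA (adjusted p = 0.424), and SCN3B and SCN4B were dim and not called. Of the neuronal markers, RBFOX3 rose by 1.80 ± 0.10 and SYP by 0.33 ± 0.06. Their part in the sodium channel values was not tested, and with the second brightest probe set RBFOX3 was at 0.13 (adjusted p = 0.297) and SYP at -0.092.

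Few calcium channel genes were called. Of the 25, 0 were higher in limma's test (2 at an unadjusted p under 0.05) and 2 were lower, and after centring on ribosomal protein genes 5 were higher and 1 lower. Over all genes in the main test 24.6% were higher and 23.8% lower, and 12 of the 25 calcium channel genes were dim. CACNA2D4 encodes an alpha2delta subunit that takes calcium channels to the membrane and is best known from photoreceptor synapses. It had the highest signal of all channel genes, with 9.44, 9.41 and 9.33 in DMSO and 8.56, 8.46 and 8.57 in SAHA. The groups stood clearly apart, and it fell by 0.86 ± 0.06 (adjusted p = 1.06e-05). Its other 5 probe sets gave -0.71 to -1.31 and were each called lower. LRTM2, a gene within it, was not called (0.08 ± 0.11).

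The other calcium channel call was CACNA1E, the pore of the R-type current, which fell by 0.22 ± 0.07 (adjusted p = 0.0356), from 4.32 ± 0.11 to 4.10 ± 0.06. Its other 2 probe sets were not called, and the call was lost in 10 of 15 other settings. CACNA1I, a T-type pore, was the brightest calcium channel pore gene at 7.11 ± 0.05 in DMSO and 7.11 ± 0.14 in SAHA (adjusted p = 0.994). CACNG8, whose protein acts on glutamate receptors, was at 8.19 ± 0.04 and 8.14 ± 0.16 (adjusted p = 0.649) in a single probe set whose name ends in _s_at. Of the 15 auxiliary genes, 6 were dim, 7 middle and 2 bright. Of the 10 pore genes, 6 were dim, 3 middle and 1 bright.

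The loci that encode no channel subunit gave 1 rise and 1 fall. KCNQ1OT1, an imprinted antisense transcript, rose by 0.29 ± 0.07 (adjusted p = 0.00826), with 2.89, 2.76 and 2.83 in DMSO and 3.05, 3.22 and 3.09 in SAHA. Its DMSO mean was the lowest of the 126. KCNRG, whose protein hinders assembly of potassium channels, fell by 0.24 ± 0.07 (adjusted p = 0.0203), a call lost in 10 of 15 other settings; its second probe set was not called. It overlaps TRIM13, which fell by 1.69 ± 0.11, and DLEU2, which fell by 0.52 ± 0.05 (-0.0065 in its second probe set), and the part of the overlap was not tested. The antisense KCNJ5-AS1 was at 6.42 ± 0.03 in DMSO and -0.06 ± 0.06 in log2 fold change (adjusted p = 0.486).

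Probe sets of one called gene did not always give one answer. Of the 24 called genes, 7 had a single probe set. Of the other 17, 6 had every probe set called the same way (CACNA2D4, KCNJ12, KCNJ14, KCNK1, KCNN4 and SCN9A), and 10 had no second one called that way. A further 8 genes were not called but had another probe set that was. The same counts over all genes are not given here, so these say nothing particular to channel genes.

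**Figure D5:**
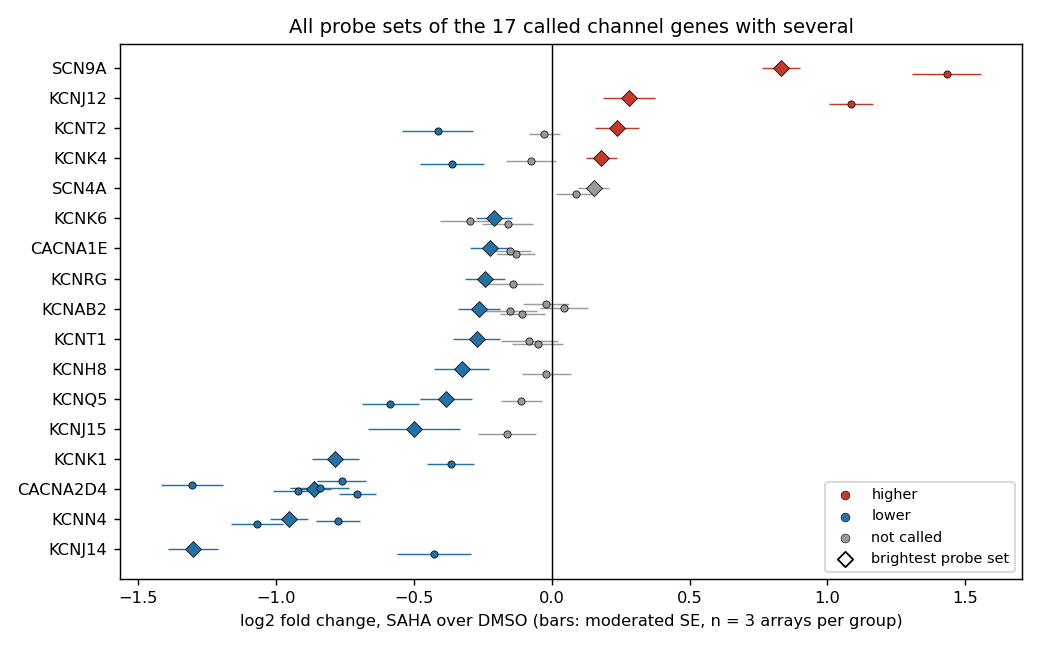
Log2 fold change of SAHA over DMSO (x axis) for every probe set of the 17 called channel genes with several probe sets (y axis); diamonds are the brightest probe set, bars are limma's SE, and colours give the call over all probe sets, in which SCN4A is not called. All 6 probe sets of CACNA2D4 lie between -0.71 and -1.31, while those of KCNK4 and KCNT2 lie on both sides of 0.

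Lists of other ion channels and of channel partners were counted beside these genes. Of 47 measured other cation channels, 16 were higher and 7 lower, with a median of 0.02. ITPR1, the channel that releases calcium from the endoplasmic reticulum, rose by 1.89 ± 0.07, the lysosomal channel TPCN1 by 0.82 ± 0.05, and P2RX5, an ATP-gated channel, fell by 2.21 ± 0.08. With the second brightest probe set TPCN1 was at 0.34 and P2RX5 at -1.17. Of 26 chloride channel genes, 9 were higher and 7 lower, with a median of 0.08; the volume-regulated channel subunits LRRC8C and LRRC8D fell, at -1.54 ± 0.08 and -1.44 ± 0.07, and the endosomal exchanger CLCN3 rose by 0.94 ± 0.05. With the mean of its probe sets LRRC8C was at -1.002. Of 29 partners and regulators, 8 were higher and 6 lower, with a median of 0.00. GEM, a small GTPase that inhibits calcium channels, rose by 1.35 ± 0.09 and the ubiquitin ligase NEDD4L, which removes sodium channels from the membrane, by 0.98 ± 0.05, while CAV1, the coat protein of caveolae, fell by 0.71 ± 0.05.

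These shares (48.9%, 61.5% and 48.3% called) stand beside 48.3% of all genes and 19.0% of the channel genes. Of the other cation channels 16 were dim, and of the chloride channels 7, so the lists differ in level. The repressor REST, named after its values were seen, fell by 0.26 ± 0.09 (adjusted p = 0.0466), from 6.25 ± 0.17 to 5.99 ± 0.03, a call lost in 11 of 16 other settings.

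Promoter windows, from 250 before to 50 after the start, were available in RefSeq for 93 of the 126 genes. The median number of CpG was 15 in dim channel genes (53 windows), 28 in middle ones (35) and 6 in bright ones (5). In all genes it rose from 8 in the dim to 20 in the middle and 27 in the bright class. The GC box, GGGCGG on either strand, was in 63.4% of channel gene windows and in 59.7% of all windows. Among dim genes the shares were 54.7% and 36.8%, among middle ones 77.1% and 59.4%, and among bright ones 60% (5 windows) and 73%. The left part of the REST site, TTCAGCACC, was in the windows of CACNG3, KCNH6 and KCNK3 (3.23%, against 0.374% of all windows), and the right part, GGACAGNGC, in those of KCNJ15, KCNJ6 and SCN10A (3.23%, against 2.66%). Both strands were searched, each GC box contains a CpG, and no window held both parts of the REST site. Of the channel genes called higher (5 windows), 0 held the left part and 1 the right part. Of those called lower (11 windows), 0 held the left part and 1 the right part. A match describes letters only, and REST sites often lie outside such a window.

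The arrays differed between the groups in a measure of RNA quality. The difference between 3' and 5' probe sets of ACTB was 0.89 ± 0.16 in DMSO and 0.61 ± 0.06 in SAHA, and that of GAPDH 0.03 ± 0.02 and 0.06 ± 0.02. Their part in the channel gene values was not tested.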

How the data were processed

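Total RNA of 6 samples (3 DMSO, 3 SAHA) was amplified and labelled with biotin in a 3' in vitro transcription kit, per the labels' protocols. The authors deposited log2 values per probe set for 49395 probe sets (range 2.33 to 14.33), made by RMA according to the submitters' processing notes; its version and the build were not given in the sources used here. RMA gives the arrays one distribution, which hides a common shift of most genes. Depth does not apply to arrays; the number of arrays limits the precision. Probe sets were named by the platform annotation; 44988 named 1 gene, and 1832 naming several were left out.

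SAHA was compared with DMSO in limma 3.58.1 (R 4.3.3; lmFit and eBayes, two-sided, Benjamini-Hochberg over 18132 genes, no covariate, no filter), which was first tested on simulated data. Errors of single groups are SD and those of fold changes limma's SE. Alternatives covered the replicate block, the choice of probe sets, a level filter, scaling, moderation, thresholds, level classes and leaving out each array. Genes named are the 12 largest rises and 12 largest falls among called genes whose groups do not overlap, every bright gene, the brightest gene of each subfamily, genes whose probe sets were called in both directions, and the 3 smallest p-values in each other list; others are marked. The members, lists and settings were chosen with earlier results of these data known. A search for the pore signature in proteins was not run here. Promoters came from a RefSeq table of GRCh38.p14. Figures were drawn with matplotlib.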

Additional observations from a re-analysis of the deposited data

How the results depend on the processing

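The calls of KCNS3, KCNMB4, SCN9A, KCNJ14, KCNN4, CACNA2D4 and KCNK1 held in each alternative that measured them, within 0.79 to 1.43 for SCN9A, -1.36 to -0.43 for KCNJ14 and -0.85 to -0.37 for KCNK1. The counts did not hold. Against all genes at 0.05, 11 channel genes were higher and 13 lower. Higher calls numbered 6 without genes of mean under 5, 29 and 26 after centring on ribosomal protein genes and poly-A spike-ins, 3 with limma's treat at 1.2-fold, 4 at an adjusted p under 0.01, and 4 to 11 when 1 array was left out. Lower calls numbered 8, 5, 6, 4, 6 and 7 to 15 in that order. Centring moves every gene of an array alike. The dim classes have no count under the level filter.

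Dim genes called higher, 7 in the main test, numbered 18 and 15 with the 2 centrings, 4 with trend and robust moderation, 2 with treat, 3 at 0.01, 4 and 3 with classes from DMSO array 2 or 3 and that array left out, and 3 to 6 when 1 array was left out. Dim genes called lower, 3 in the main test, numbered 5 with the mean of probe sets, 7 with classes at 5.5 and 7.5, 1 with classes from DMSO array 1, 0 with either centring, with treat (0 at an unadjusted p under 0.05 in these 3) and at 0.01 (5 unadjusted), and 0 to 4 when 1 array was left out. The 1 bright gene called higher, KCNK4, gave 2 with classes at 4.5 and 6.5 and 0 with the second or mean probe set, without _x_at and _s_at probe sets, with treat, with classes at 5.5 and 7.5 (0 unadjusted in these), with moderation by trend, at 0.01, or with classes from DMSO array 3 (1 unadjusted), and 0 to 1 when 1 array was left out. The directions of KCNK4 (-0.36 with the second, -0.086 with the mean probe set), KCNT2 (-0.027 and -0.068) and SYP (-0.092 with the second) turned. Causes were not tested beyond what each setting changes.

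The correlations of same-numbered deviations were -0.126, -0.07 and -0.041, and 0 of 6 arrays correlated best with its own number. With 3 arrays per group these values show no pairing by replicate number but cannot exclude one. With the replicate block, 7 channel genes were higher and 12 lower, 4 dim genes were higher, and 0 bright genes were higher (1 unadjusted in limma); of 24 calls, 18 were shared with the main test.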

Other observations

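Probe sets that name KCNE1 together with a second locus were left out of the gene-level test, since the annotation names several genes. KCNE1 encodes an auxiliary subunit of the KCNQ1 channel. The brighter of its 2 probe sets was at 5.56 in DMSO with a log2 fold change of 0.35 (limma's adjusted p = 0.00777 over probe sets), and the other at 4.79 with 1.39 (adjusted p = 0.000677). For 3 probe sets that name KCNA6 with GALNT8, log2 fold changes were 0.13, 0.08 and 0.17, and none was called (0 in limma, with adjusted p-values of 0.463, 0.48 and 0.155).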
